A study of Mus musculus with 9 samples.

Results

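A block of mouse chromosome 8, chr8:119910841-124345722 in the mm10 build, held more binding of the glucocorticoid receptor (GR) and the mineralocorticoid receptor (MR) than any other window of its length set against it here. The block was chosen by the number of peaks that fell in it after corticosterone (CORT), so that number is a description and not a finding. Its ends are those of Gm20388, an annotated gene that runs across all the other genes of the block, and peaks were assigned to those other genes instead. The block is 4.43 Mb long, which is 3.43% of chromosome 8 and 0.163% of chromosomes 1 to 19, X and Y. Its members are 696 of 30508 peaks and 379 of 25244 border pairs.

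The data come from ChIP-nexus in N2A cells, a mouse neuroblastoma line, transiently transfected with both EGFP-GR and mCherry-MR, with GR precipitated through EGFP and MR through mCherry. ChIP-nexus is a chromatin immunoprecipitation in which an exonuclease trims each DNA fragment up to the crosslinked protein. Cells were given vehicle for 20 minutes, 100 nM CORT for 20 minutes, or the same CORT treatment followed by washing and 40 minutes without steroid (washout), and input chromatin was taken from each treatment without immunoprecipitation. The 9 samples gave 6 lists of MACS2 peaks, called against the input of the same treatment, and 9 lists of MACE border pairs, which are the positions on opposite strands where the exonuclease stopped. All groups carried both overexpressed receptors. The study's methods describe rat receptors whereas the deposited description names mouse receptors, and the cells also have GR of their own that the tag does not capture. The 3 replicates of each condition were combined before deposition, so there is no spread between replicates, the lists give no read depth behind a peak, and every test below compares peaks inside the block with peaks outside it within 1 list, with peaks as the units.

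GR and MR are steroid receptors that move into the nucleus when they bind a glucocorticoid such as CORT and act there as transcription factors. Their DNA-binding domains are nearly alike, and both recognise the glucocorticoid response element (GRE), an inverted repeat of a hexamer around a short spacer. MR has the higher affinity for CORT and stays bound at lower hormone levels than GR. Receptor binding is often far from promoters, in introns and between genes, and many binding sites lack a full GRE.

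The sequences that follow are the closest GRE matches within 100 bp of the summit at the 6 strongest sites of the block where a GR and an MR peak overlapped after CORT, ranked by −log10 p of the GR peak, the measure MACS2 gives of a peak against input. Letters are those of the plus strand of mm10, and capitals mark the hexamers compared with the consensus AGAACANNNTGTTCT, of which 12 positions are fixed.
chr8:123786463-123786487: ccagcAGGACAgaaCGTTCTctgtt
chr8:123730227-123730251: tgactAGGAGAaggTGTCTTgtact
chr8:120227651-120227675: gtcccAGGACAcacAGTACCcttct
chr8:122323481-122323505: agcctAGCACAcaaGGTCCTgcacg
chr8:120211525-120211549: agggtAGGACTctgAGTTCTgtgcc
chr8:123762681-123762705: agaacAGAACAgacTGTCTTtggga
A further 3 matches lay at sites where GR was still called after washout and had at most 3 mismatches, in the intergenic stretch between Banp and Zfpm1, in Mthfsd and in Acsf3 in that order.
chr8:122112797-122112821: aagccAGGACAtccTGTTCCgtggt
chr8:121092425-121092449: gtggaAGAATGccaGGTTCTtagat
chr8:122805621-122805645: cccaaGGCACCgggTGTTCTggagg
None of these 9 sequences carried the whole consensus. The matches at chr8:123786463-123786487, chr8:123762681-123762705 and chr8:122112797-122112821 had 10 of the 12 fixed positions, and those at chr8:123730227-123730251 and chr8:120227651-120227675 had 8.

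After vehicle the block held 1 of the 64 GR peaks and 0 of the 73 MR peaks, and 0 of 73 allows a share of up to 5.00% (95% Wilson interval, which covers counting error only). After CORT it held 258 of 10602 GR peaks, or 2.43% (2.16 to 2.74), and 315 of 14638 MR peaks, or 2.15% (1.93 to 2.40). After washout it held 19 of 246 GR peaks, or 7.72% (5.00 to 11.7), and 103 of 4885 MR peaks, or 2.11% (1.74 to 2.55). Receptor binding in the block was thus called almost entirely in the hormone-treated cells, and GR kept a larger share of its few washout peaks there than of its CORT peaks.

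Windows of the length of the block were tiled along chromosome 8 to either side of it. GR peaks after CORT numbered 58.2 per Mb in the block and between 0.226 and 33.8 per Mb in the 27 other windows, with a median of 6.99. MR peaks after CORT numbered 71.0 per Mb in the block and between 0.451 and 44.6 per Mb in the other windows, with a median of 8.79. For MR after washout the block had 23.2 per Mb against a median of 2.93 and a highest value of 15.8, and for GR after washout 4.28 against a median of 0.225 and a highest value of 2.25. The block was therefore 8.32, 8.08 and 7.92 times as dense as the median window of its chromosome for GR after CORT, MR after CORT and MR after washout. None of the 559 windows on the other chromosomes came as high, where the highest values were 31.3 for GR and 32.0 for MR after CORT. The next densest windows for MR after CORT were on chromosome 8 too, namely the right neighbour of the block with 150 GR and 198 MR peaks and a window near the other end, chr8:9038791-13473672, with 122 and 146.

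**Figure D1:**
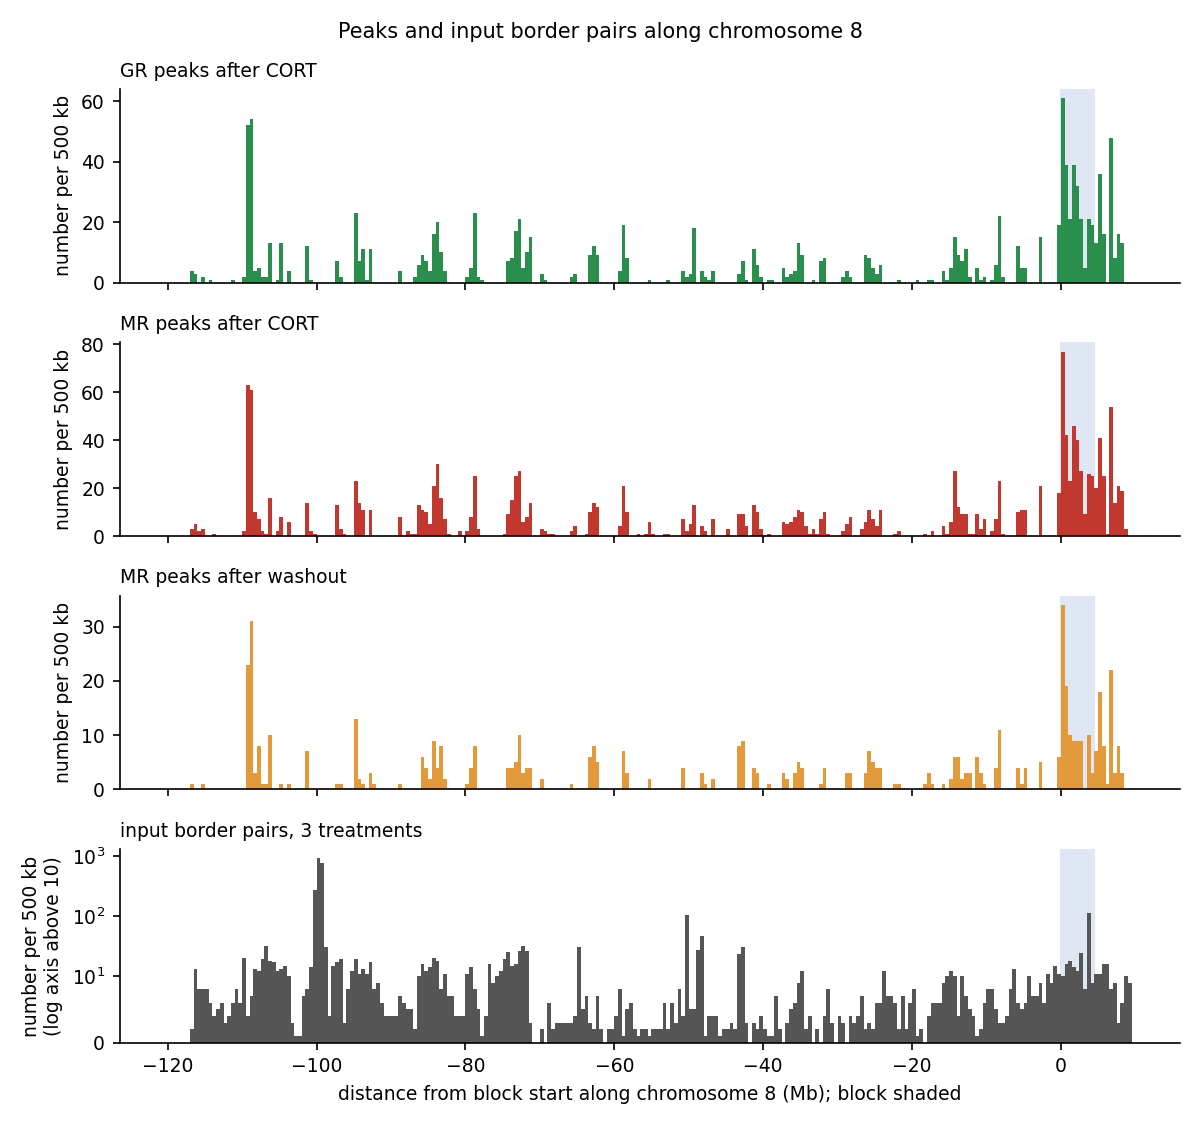
Bars give the number of GR peaks after CORT, MR peaks after CORT, MR peaks after washout and input border pairs of the 3 treatments summed in 500 kb bins of chromosome 8, by distance from the start of the block in Mb, with the block shaded and the input axis logarithmic above 10. The highest bin for each receptor is the first of the block, with 61 GR and 77 MR peaks, and the highest bins outside it hold 54 and 63, while the highest input bins, up to 911 pairs, lie far outside the block.

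The input chromatin was also denser in the block, although less so. Input border pairs after vehicle, CORT and washout numbered 18.3, 17.8 and 14.0 per Mb in the block against medians of 5.64, 4.27 and 4.51 in the other windows of chromosome 8, which is 3.24, 4.17 and 3.10 times as many. A stretch of 8.71 kb in Def8 weighed on these ratios, which were 2.16, 2.49 and 1.70 without it, and against the mean of the windows in place of their median the ratio of the 3 inputs together was 1.57 and not 3.22. Only 1 other window of the chromosome was higher in each input, chr8:17908555-22343436 with 702, 656 and 657 pairs, and that window had just 13 GR and 17 MR peaks after CORT. Chromosome 8 as a whole ranked 1 of 21 chromosomes in the median window density of GR and MR peaks after CORT, of MR peaks after washout and of pairs in all 3 inputs. The highest medians on any other chromosome were 2.49 input pairs per Mb after vehicle, on chromosome 13, and 1.80 and 1.58 after CORT and washout, on chromosome 12. The part of the input density in the number of peaks called was not tested.

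The block also differed from other windows in its DNA. Its GC content was 51.1%, above that of all 27 other windows of chromosome 8 (36.8% to 46.6%) and of the 559 windows elsewhere (up to 50.5%). It held 73 protein-coding genes, and 3 windows of chromosome 8 and 72 on other chromosomes had as many or more. The 7 windows elsewhere in the genome with a GC content within 2 points of the block and at least 50 genes had between 8.34 and 31.3 GR peaks per Mb (median 18.5) and between 12.6 and 31.8 MR peaks per Mb (median 23.2) after CORT. All 7 had to lie below the block, since it was chosen by its peaks and ranked above every window compared. Whether GC or gene content has a part in the density was not tested.

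**Figure D2:**
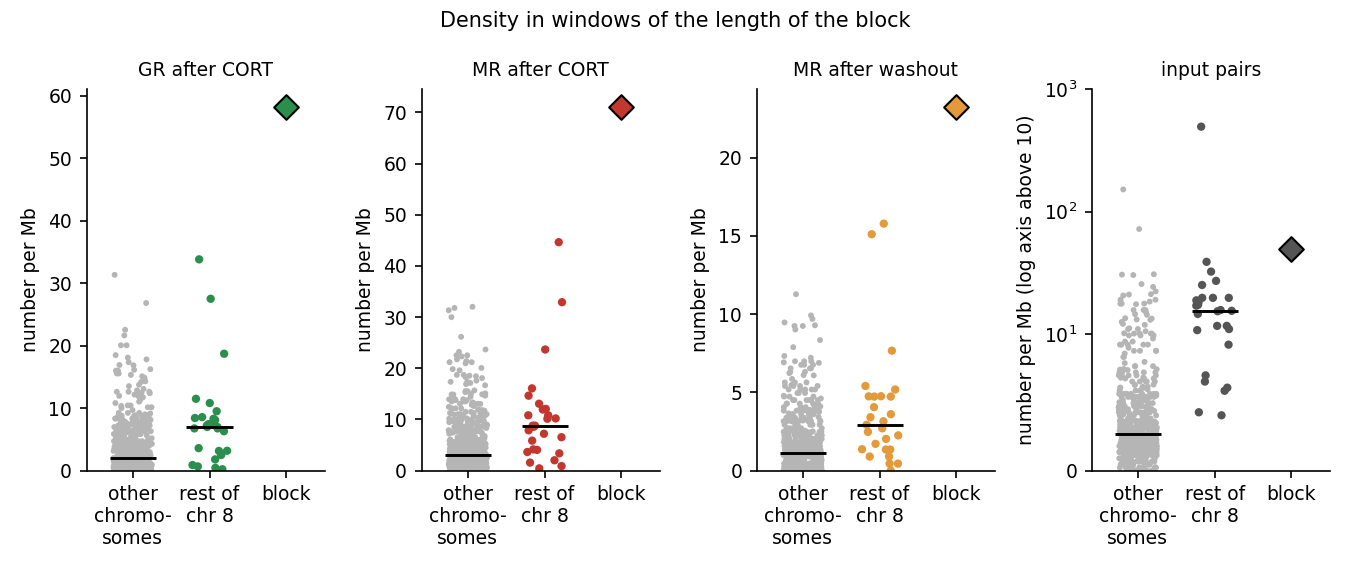
Points give the number of peaks or input border pairs per Mb in windows of the length of the block, on the other chromosomes (559 windows, gray), on the rest of chromosome 8 (27 windows) and in the block (diamond), with lines at medians and a logarithmic axis above 10 for input. The block lies above all other windows for the 3 lists of peaks shown, and below 1 window of chromosome 8 and 2 on other chromosomes for input.

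The ends of Gm20388 do not fall where binding begins and ends. The 500 kb to the left of the block held 19 GR and 18 MR peaks after CORT, against 61 and 77 in its first 500 kb. The last 500 kb of the block held 20 and 26, and the 500 kb to its right 13 and 19. The MR peaks just inside and just outside the left end lay at 119978921 and 119902581 and had −log10 p of 10.3 and 7.73, and those at the right end lay at 124294960 and 124416720 with 10.4 and 11.1.

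Peaks were unevenly spread within the block. Of its 45 bins of 100 kb, the 5 fullest held 38.4% of the GR peaks and 35.2% of the MR peaks after CORT, and 51.5% of the MR peaks after washout, whereas 7 bins had no GR peak and 5 no MR peak after CORT. Neighbouring GR summits lay a median of 3209 bp apart and MR summits 2261 bp apart, and 122 of the gaps between MR summits were under 1000 bp. The widest stretch without an MR summit after CORT, 257 kb, ran from 120835851 to 121092388 between Irf8 and Mthfsd, and the widest without a GR summit, 280 kb, ran from 122854791 to 123134898 across Ankrd11, Spg7 and Rpl13.

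**Figure D3:**
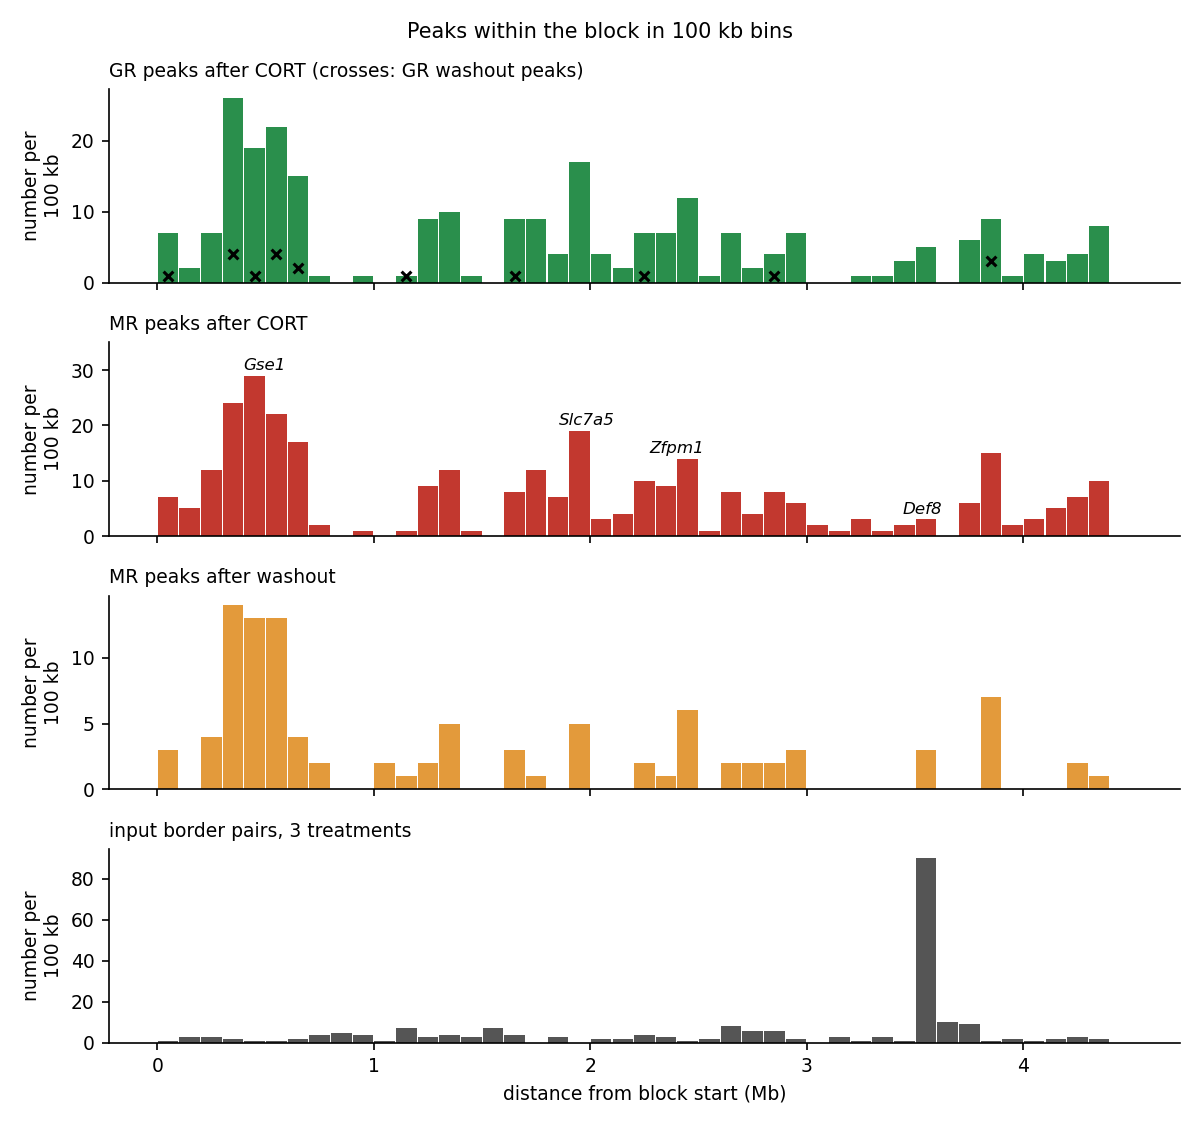
Bars give peaks after CORT and after washout and input border pairs of the 3 treatments summed in 100 kb bins, by distance from the start of the block in Mb, with crosses for the number of GR peaks after washout and the names of 4 genes above their bins. The fullest bins, with up to 26 GR and 29 MR peaks after CORT, lie over Gse1, and the input pairs stand out in the bin that holds part of Def8.

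Of the 73 protein-coding genes, 34 had a GR peak after CORT inside it or at most 5 kb away, 34 had an MR peak, and 29 had both. Def8 is counted among these with 3 GR and 2 MR peaks, all in a stretch with many input border pairs that is described below. A peak outside all genes was given to the nearest gene within that distance. Across all 21950 protein-coding genes 15.5% had a GR peak, 18.2% an MR peak and 21.2% a peak of either receptor, and in the block 39 genes, or 53.4%, had either. This share rests on the same peaks that chose the block. The 39 genes were longer, with a median of 33.2 kb, than the 34 genes without a peak, with a median of 10.3 kb. Usp10, 6430548M08Rik, Spire2, Nup133 and Taf5l had GR peaks alone, and Ankrd11, Ccsap, Emc8, Trhr2 and Fanca had MR peaks alone. Where genes overlap, as Gm27021, 1190005I06Rik and Emc8 do, a peak counts for each gene that holds its summit.

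Gse1, which encodes a chromatin protein found in histone deacetylase complexes, was the center of binding in the block. It lies at chr8:120228456-120581390 on the plus strand and is 353 kb long. It held 0 peaks after vehicle. After CORT 78 GR and 89 MR peaks were called in it or within 5 kb of it, and after washout 10 and 42. That is 30.2% of the GR peaks and 28.3% of the MR peaks of the block after CORT, and more of each than any other of the 21950 genes. Nearly all lay in introns, 76 of the GR peaks and 86 of the MR peaks. The peaks in Gse1 had a median −log10 p of 9.997 for GR (5.16 to 34.4) and 9.61 for MR (4.91 to 41.5). Outside the block the medians were 8.66 and 9.17. The MR summits in Gse1 had a median spacing of 0.800 kb. A GRE, here a match to the consensus with at most 3 mismatches within 100 bp of the summit, was found in 18 of the GR peaks of Gse1 (23.1%) and 19 of its MR peaks (21.3%), next to 37.7% and 39.9% of all tested peaks. No CORT peak in Gse1 overlapped an input border pair, where only 0.681% of all tested GR peaks and 0.597% of all tested MR peaks did. Without Gse1 the rest of the block still had 44.1 GR and 55.4 MR peaks per Mb after CORT, above all 586 other windows.

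Zfpm1 encodes a zinc finger cofactor of GATA factors and was the next gene by number of peaks. Zfpm1 had 16 GR and 14 MR peaks in its 55.1 kb or within 5 kb of it after CORT and, once CORT was washed out, 0 and 7. It had none after vehicle. MR peaks there reached a −log10 p of 36.7 and GR peaks 31.8. A GRE was found in 3 of the 16 GR peaks and 2 of the 14 MR peaks, next to the same 37.7% and 39.9%, and no test was made for single genes. Divided by gene length alone, these MR peaks numbered 25.4 per 100 kb, against 25.2 for Gse1. Of the MR peaks counted, 3 of 14 at Zfpm1 and 3 of 89 at Gse1 lay upstream of the gene. The values are therefore not a comparison of the gene bodies.

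Slc7a5 encodes the light chain of a carrier of large neutral amino acids. It had 6 GR and 8 MR peaks after CORT, and no peak of either receptor was called there after washout. A GRE was found in 2 of the GR and 5 of the MR peaks, next to 37.7% and 39.9% of all tested peaks. With so few peaks these counts are not set apart from those shares. The MR peaks had −log10 p between 6.77 and 14.9. Of its GR peaks, 4 of 6 overlapped an MR peak, next to 61.0% of all tested GR peaks. None lay within 1 kb of a start site, where 10.2% of all did.

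Crispld2 and Galnt2 had 7 GR and 10 MR peaks each. Crispld2, which encodes a secreted cysteine-rich protein and is known as a glucocorticoid-induced gene in airway cells, had an MR peak 0.161 kb from a transcription start site with a −log10 p of 43.1 after CORT and 45.6 after washout, and the GR peak there had 21.9 and 9.59. Galnt2, a Golgi enzyme that starts O-glycosylation, kept 1 MR peak and no GR peak after washout. Fam92b had 5 GR and 8 MR peaks, among them an intronic MR peak of −log10 p 41.6 where GR had 14.0. Fbxo31, the substrate receptor of a ubiquitin ligase, had 6 of each, and Zcchc14 had 4 and 6. These 20 leading genes fell off quickly in number, so that the first 5 held 44.2% of the GR and 41.6% of the MR peaks of the block.

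**Figure D4:**
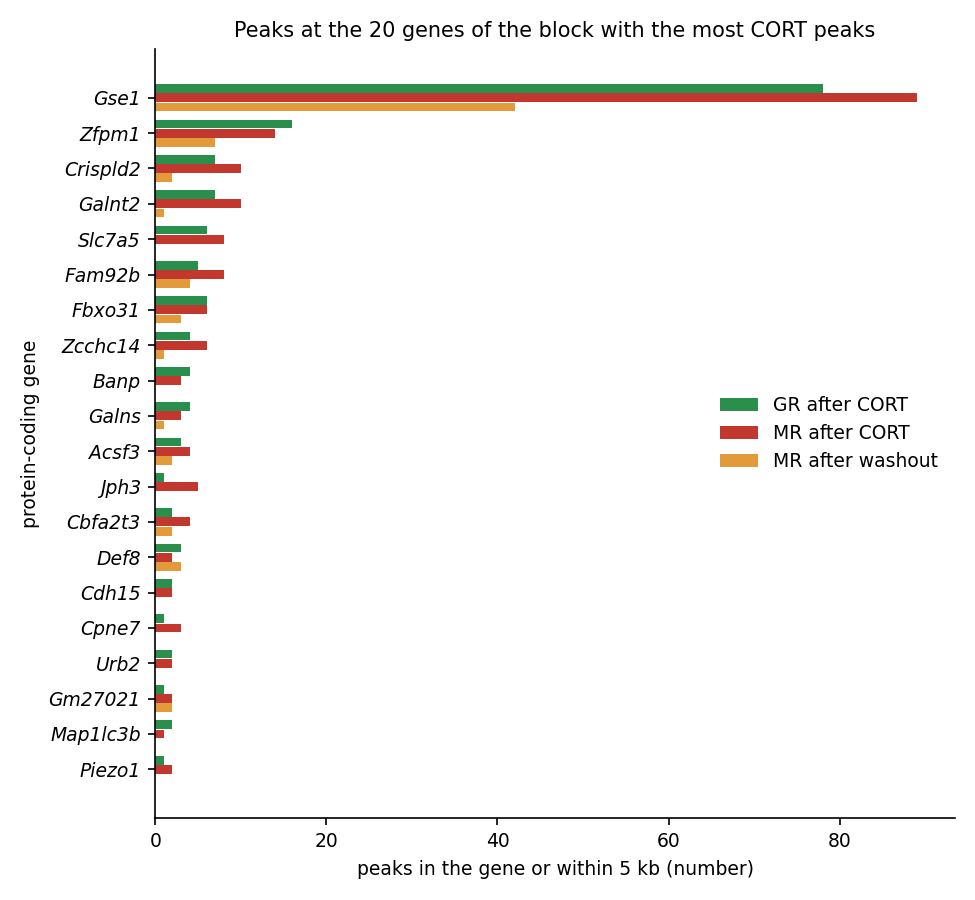
Bars give the number of GR peaks after CORT, MR peaks after CORT and MR peaks after washout in each of the 20 protein-coding genes of the block with the most CORT peaks, or within 5 kb of the gene. Gse1, with 78, 89 and 42, stands far from the rest, of which Zfpm1 has the most with 16, 14 and 7.

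Gene groups are described beside the 53.4% of all genes of the block that had a CORT peak of either receptor, and with so few members no group is set apart from that share. Of 13 transcription factor and chromatin genes, 7 had a CORT peak: besides Gse1 and Zfpm1, Banp had 4 GR and 3 MR peaks, the corepressor Cbfa2t3 had 2 and 4, Snai3 had 1 and 1, Ankrd11 had 0 and 3, and Taf5l had 1 and 0. No CORT peak was assigned to the other 6, namely Irf8, a regulator of myeloid cells, the forkhead genes Foxf1, Foxc2 and Foxl1, and Tcf25 and Zfp276. Binding did occur beyond the forkhead genes, since the 400 kb between Foxl1 and 1700018B08Rik held 20 GR and 22 MR peaks after CORT, none of them within 5 kb of a protein-coding gene, and 7 MR peaks after washout.

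Among 9 genes of the cytoskeleton, of adhesion and of transport across membranes, 7 had a CORT peak. Besides Slc7a5 these were Jph3, which couples membranes in excitable cells, with 1 GR and 5 MR peaks, the mechanosensitive channel gene Piezo1 with 1 and 2, the cadherin gene Cdh15 with 2 and 2, the neuronal tubulin gene Tubb3 and the small GTPase gene Rhou with 2 and 1 each, and Spire2 with 1 and 0. Acta1 and Gas8 had none. Of 11 genes of mitochondria and metabolism 5 had a CORT peak, with Galns at 4 and 3, Acsf3 at 3 and 4, Abcb10 at 2 and 1 and Mthfsd at 1 and 1 next to Galnt2. Cox4i1, Car5a, Mvd, Aprt, Spg7 and Dpep1 had none.

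Of 5 genes of ubiquitin and autophagy 3 had a CORT peak, Fbxo31, Map1lc3b with 2 and 1, and Usp10 with 1 and 0. Of 5 genes of DNA replication, repair and cell division 3 had one, with the replication licensing gene Cdt1 at 1 and 2, Chmp1a at 1 and 1 and Fanca at 0 and 1. For scale, the well-known receptor target Fkbp5, outside the block, had 12 GR and 15 MR peaks by the same rule, Zbtb16 had 3 and 4, Sgk1 and Dusp1 had 2 and 2 each, Per1 had 2 and 1, Tsc22d3 had 0 and 1, and Klf9 had none.

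Peaks far from genes carried some of the strongest binding. Of the CORT peaks of the block, 86 for GR (33.3%) and 115 for MR (36.5%) had no protein-coding gene within 5 kb, next to 32.7% and 33.1% of all tested peaks. The strongest peak of the block for each receptor lay at chr8:123786119-123786566, 19.6 kb from a start site in the 142 kb between Rhou and Rab4a, at the match chr8:123786463-123786487 printed above. There the GR peak had a −log10 p of 70.8 after CORT and 17.3 after washout, and the MR peak 60.2 and 57.0, with no peak after vehicle. That stretch held 12 GR and 20 MR peaks after CORT and 3 of the 19 GR peaks after washout. In the 253 kb between Banp and Zfpm1, with 14 GR and 20 MR peaks, the site of chr8:122112797-122112821 had 19.6 for GR and 43.5 for MR after CORT, and 11.9 and 48.1 after washout. As −log10 p grows with depth, these values rank peaks within a list and do not measure a change in binding between treatments.

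GR and MR peaks called against the same CORT input overlapped by at least 1 bp at many sites, which is given as a description. In the block 172 GR peaks (66.7%) overlapped an MR peak and 194 MR peaks (61.6%) overlapped a GR peak, next to 61.0% and 47.6% of all tested peaks. Merged into sites, the CORT peaks of the block gave 170 sites of both receptors, 86 of GR alone and 121 of MR alone. Sites of both receptors were 45.1% of the sites in the block and 34.8% elsewhere. The median −log10 p of the peaks was 9.39 in the block and 8.66 outside for GR, and 9.61 and 9.17 for MR.

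GR peaks of the block were more often called again after washout than GR peaks elsewhere. A GR washout peak overlapped 19 of the 258 GR CORT peaks, or 7.36% (4.76 to 11.2). The share was 2.02% of all 10569 tested GR CORT peaks and 1.88% (1.64 to 2.16) of those outside the block (odds ratio 4.15, two-sided Fisher's exact test, adjusted p = 1.08e-05 over 10 tests). Neighbouring peaks are not independent, and 10 of the 19 GR washout peaks lay in Gse1, so this p-value is too small. The difference was also past the threshold against the rest of chromosome 8 alone, where the share was 3.40%, with an odds ratio of 2.26 and an adjusted exact p of 0.0328, and without Gse1, with 2.74 and 0.0368. It was not when a washout peak had to cover at least 50% of the CORT peak (1.43, adjusted exact p = 0.494). GR CORT peaks of the block were wider, with a median of 155.5 bp against 121 bp outside. Whether width has a part in the overlap was not tested. Among the 20% of GR peaks with the highest −log10 p, 16 of 74 in the block (21.6%, 13.8 to 32.3) and 7.21% (6.16 to 8.41) outside had a washout peak. For MR, 88 of 315 CORT peaks in the block were overlapped after washout, or 27.9% (23.3 to 33.1), with 24.6% over all tested peaks and 24.5% outside (odds ratio 1.196, adjusted exact p = 0.235), which was not past the threshold. Stratified by −log10 p, the odds ratio for MR was 0.977.

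**Figure D5:**
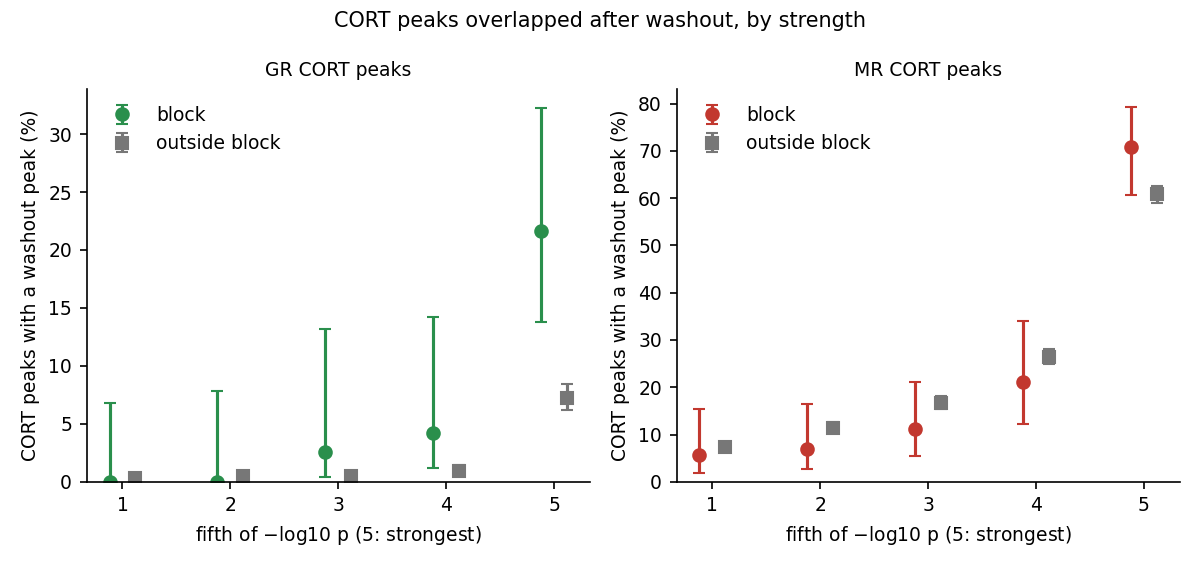
Points give the percentage of CORT peaks overlapped by a washout peak of the same receptor in 5 groups of rising −log10 p, in the block and outside it, for GR (left) and MR (right), with 95% Wilson intervals. In the strongest group of GR peaks the block stands at 21.6% and the rest at 7.21%, and for MR at 70.8% and 60.8%, whereas in the other 4 groups of MR peaks the block is the lower, from 5.66% against 7.38% in the weakest to 21.2% against 26.5% in the next to strongest.

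All 19 GR washout peaks of the block overlapped a GR and an MR CORT peak, and 18 of them an MR washout peak. Over all tested GR washout peaks, 90.9% overlapped a GR CORT peak and 77.0% an MR washout peak. None of the 19 touched a vehicle peak or an input border pair, while 22.2% of all tested GR washout peaks overlapped a vehicle peak of either receptor. The genes reached were Gse1 with 10 peaks and Crispld2, Mthfsd, Fbxo31 and Acsf3 with 1 each, and 5 peaks were over 5 kb from a gene. At these places GR had been well bound after CORT, with a median −log10 p of 21.9 (9.60 to 70.8). A GRE was found in 6 of the 19 (31.6%), close to the 32.7% of GR washout peaks outside the block. None of the 10 in Gse1 had one, and no test was made of this. Washout peaks were more frequent at sites of both receptors. Of these 170 sites 11.2% had a GR washout peak and 45.9% an MR washout peak, whereas of the 121 sites of MR alone 3.31% had an MR washout peak. Outside the block the corresponding values were 2.92%, 43.2% and 10.6%. A site of both receptors needs a peak in both lists. Washout overlap also rose with −log10 p, for MR peaks outside the block from 7.38% in the weakest of 5 groups to 60.8% in the strongest. The classes of sites were not matched for strength or width, so whether binding of both receptors has a part was not tested.

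GREs were less frequent in the block. Of its GR peaks 76 of 258 had a GRE, or 29.5% (24.2 to 35.3), where 37.7% of all tested peaks and 37.9% of those outside had one (odds ratio 0.684, adjusted exact p = 0.0124). Of its MR peaks 89 of 315 had a GRE, or 28.3% (23.6 to 33.5), where 39.9% of all and 40.1% outside had one (odds ratio 0.587, adjusted exact p = 7.78e-05). Windows of the same length 1000 bp from the summits had a GRE in 12.4% and 13.2% of cases in the block and in 14.6% and 15.2% outside. The peaks of the block were richer in GC, with medians of 55.2% against 50.7% for GR and 54.7% against 49.8% for MR within 100 bp of the summit. In fits stratified by GC content the odds ratio for GR was 0.839, not past the threshold, and for MR 0.709, past it. The lower share in GR peaks was also not past the threshold against the rest of chromosome 8 (0.839, adjusted exact p = 0.375) or without Gse1 (0.779, adjusted exact p = 0.243), nor with −log10 q of at least 5 or 4 mismatches allowed.

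Of the other motifs searched, GATA was less frequent in the MR peaks of the block. The AP-1 sequence TGACTCA, searched on both strands within 100 bp of the summit, was in 7.75% of GR and 6.35% of MR peaks of the block, next to 8.73% and 7.81% of all tested peaks, and neither comparison with the peaks outside was past the threshold (adjusted exact p = 0.655 and 0.439). The GATA sequence AGATAA was in 8.91% of GR peaks, next to 11.5% of all (adjusted exact p = 0.293 against those outside). It was in 7.30% of MR peaks (4.91 to 10.7), next to 12.6% of all and 12.7% outside (odds ratio 0.543, adjusted exact p = 0.00834). Stratified by GC content, that odds ratio was 0.801 and not past the threshold. In flanking windows of the block AP-1 was found in 4.07% and 4.13% and GATA in 6.20% and 7.78% of cases for GR and MR.

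Binding in the block lay away from promoters. Only 10 of the 258 GR peaks, or 3.88% (2.12 to 6.99), had their summit within 1 kb of a transcription start site of a protein-coding gene, where 10.2% of all tested GR peaks and 10.3% of those outside did (odds ratio 0.350, adjusted exact p = 0.000779). With a promoter of 2 kb the odds ratio was 0.644 (adjusted exact p = 0.0568). For MR 16 of 315, or 5.08% (3.15 to 8.09), lay at a promoter, next to 7.75% of all and 7.81% outside (odds ratio 0.632, adjusted exact p = 0.145). Introns of protein-coding genes held 143 of the GR and 167 of the MR peaks after CORT, and coding exons 3 of each.

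Border pairs, which resolve binding more finely, gave a separate picture, because many of them lay in 1 stretch. A stretch of 8.71 kb in an intron of Def8, chr8:123425807-123434518, chosen after the pairs were seen, held all 18 GR and 20 MR pairs of the block after vehicle, both of its GR pairs after CORT and all 19 after washout. It also held 27 of 81, 32 of 79 and 28 of 62 input pairs and the only GR vehicle peak of the block, at 123427173 to 123427289 with a −log10 p of 10.2. Without this stretch the input was 2.16, 2.49 and 1.70 times the median of chromosome 8, and the peaks after CORT 8.24 times for GR and 8.04 times for MR. Because pairs occurred there in all 9 lists, those without immunoprecipitation included, the pairs of the stretch were set aside. The peaks of the stretch, 3 for GR and 2 for MR after CORT, stayed in the counts above.

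Outside it the block had 36 MR pairs after CORT and 19 after washout, and the GR lists held no pair there. Of the 36 MR pairs, 32 lay in an MR peak and 15 in Gse1, none touched an input pair, and their median size was 32.5 bp. A GRE lay within 50 bp of 9 of the 36, next to 25.7% of all tested MR pairs after CORT. Of the 19 pairs after washout 14 lay in an MR washout peak, 5 in Gse1, with a median size of 51 bp, and 8 of the 19 had a GRE, next to 23.7% of all tested MR pairs after washout. The GR list after CORT used here has only 139 pairs in all, fewer than the 623 after vehicle and the 568 after washout. The study reports many more GR pairs after CORT than this list holds, so the list is incomplete relative to the study's own. Nothing about GR binding can be read from the lack of GR pairs after CORT.

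Few CORT peaks touched an input pair or a vehicle peak, in the block as among all tested peaks. Of the 258 GR peaks 3 (1.16%) overlapped an input pair of any treatment, next to 0.681% of all tested GR peaks. A vehicle peak was overlapped by 1 of the 258, next to 0.539%. Of the 315 MR peaks 2 (0.635%) overlapped an input pair, next to 0.597%, and 0 a vehicle peak, next to 0.453%.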

How the data were processed

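Peak and border pair lists of 9 ChIP-nexus samples were used as deposited. The authors trimmed and aligned reads to mm10 with Bowtie2, removed duplicates by barcode, kept mapping quality above 20, combined the 3 replicates of a condition and called peaks with MACS2 2.1.1.20160309 at an FDR of 0.05 against input, and border pairs with MACE. Scores as deposited are the whole part of 10 times the −log10 q, the deposited −log10 values are −log10 p and −log10 q against input, of which the latter stands under a heading for fold enrichment, and each border pair has a p-value that the authors obtained from MACE (none for GR after CORT). No list gives read counts, so depth is not known from the files. The study states read totals, which were not used here. The column headed −log10 q holds the summit offset. Where depth was lower, fewer weak peaks would be listed.

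Peaks of chromosomes 1 to 19, X and Y were annotated with GENCODE M21 protein-coding genes without Gm20388, to each gene holding the summit or else the nearest within 5 kb. Zfp469 is not in that set. Overlap meant at least 1 bp. Windows needed 50% known bases, and 1 window of chromosome 8 was left out. The 10 shares were compared by two-sided Fisher's exact tests with Benjamini-Hochberg adjustment (threshold 0.05), with Wilson intervals at 95%; neighbouring peaks are not independent, so p-values are too small. Stratified odds ratios are Mantel-Haenszel estimates. Named genes were the 20 with the most CORT peaks, members of the fixed lists, and those at the 5 strongest peaks of each receptor and at vehicle or GR washout peaks. The block, lists and tests were chosen with earlier results of these data known. Overlap, motif and odds ratio code was tested on simulated data. Python 3.11.15, pandas 2.3.3, scipy 1.17.1, statsmodels 0.14.6, pysam 0.24.0, samtools 1.23.1 and matplotlib 3.10.9 were used.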

Additional observations from a re-analysis of the deposited data

How the results depend on the processing

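Of 100 recomputed values, 68 were unchanged by the rules set for them. Shares had to keep their direction and their side of the threshold, and densities to stay within the 95% interval of the count. Numbers of genes had to stay within a fixed ratio of the main number. The lower GRE share of GR peaks was no longer past the threshold against the rest of chromosome 8 (odds ratio 0.839), with −log10 q of at least 5 (0.725), with 4 mismatches allowed (0.854), and, in alternatives chosen after seeing the data, without Gse1 (0.779) or stratified by GC content (0.839). The washout overlap of GR lost its call when 50% of the CORT peak had to be covered (1.43), the promoter share of GR with a promoter of 2 kb (0.644), and the GATA share of MR when stratified by GC content (0.801). The GATA share of GR passed it within 200 bp of the summit (0.659) and turned to 1.14 when stratified by GC content. The washout overlap of MR, not past the threshold, turned to 0.977 stratified by −log10 p, to 0.973 with 50% covered and to 0.899 without Gse1, and the AP-1 share of GR to 1.02 without Gse1. The cause was not tested.

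For GR after CORT, MR after CORT, MR after washout and the 3 inputs together, the density of the block relative to the median window was 25.8, 20.8, 20.6 and 17.1 times with windows on all chromosomes, against 8.32, 8.08, 7.92 and 3.22 on chromosome 8. With the mean of the windows in place of the median, chosen after seeing the data, it was 7.19, 6.72, 6.06 and 1.57. Per Mb of gene area it was 6.73 and 6.20 for GR and MR after CORT and 4.28 for input, and merged within 500 bp 6.93, 6.81 and 2.16. Without Gse1 it was 6.38 for each receptor after CORT and 5.35 for MR after washout, and without the stretch in Def8 the input ratio was 1.96. The number of genes with a CORT peak ranged from 32 to 40 around 39.

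No paired analysis was possible because each condition has 1 list of pooled replicates, and for the same reason no replicate was left out. The lists hold no depth, which limits the calling of weak peaks.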
